A study of Neotoma lepida with 16 samples.

Results

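The genes described are 8 genes of cholesterol synthesis, of 35561 genes or transcripts named on the array: Hmgcs1, Idi1, Fdps, Fdft1, Sqle, Lss and Cyp51, which encode enzymes, and Srebf2, which encodes a transcription factor. They were chosen by name, as all probes annotated with one of these symbols on a rat array after a "_predicted" suffix was removed. The rule found all 8, on 12 of 41012 distinct probes, and none of the 8 genes is a receptor for cholesterol uptake, so the uptake genes come from a wider list given after the members. Levels were measured in liver of 16 wild-caught desert woodrats (Neotoma lepida), 1 array with 2 dyes per animal. The groups were Great Basin animals fed creosote bush, Great Basin animals fed juniper, Mojave animals fed creosote bush and Mojave animals fed juniper, with 4 animals each. All had spent 3 months in captivity and then received their plant in rising amounts in rabbit chow for 5 days. In the Mojave creosote group all 4 were male, whereas the sexes were equal, 2 and 2, in the remaining groups. Every group ate one of the plants, and higher on creosote can therefore equally be read as lower on juniper. The ages of these animals are not given in the sources used here.

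The liver makes much of the body's cholesterol, from acetyl-CoA through mevalonate, isoprenoid units, farnesyl diphosphate, squalene and lanosterol. When sterols in the endoplasmic reticulum run low, SCAP carries the membrane-bound factor SREBP2 to the Golgi, where proteases release its active part, and that part switches on the genes of the pathway. Creosote bush is a natural food of Mojave woodrats and juniper of Great Basin woodrats, and the trial asked how livers of both populations respond to each plant.

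Of the 7 genes that could be tested, 1 passed for diet in Mojave animals, beside 9.73% of all genes. This was Cyp51, whose transcript was 1.54-fold higher on creosote than on juniper. The call was kept in 18 of 29 alternative ways of processing the data or leaving out animals. That its diet effect differed between the populations did not pass (limma adjusted p = 0.264). The other 6 passed the test in none of 7 comparisons of diet and population with their brightest probe. Animals of one group differed widely in Hmgcs1 and Idi1, more than in most genes of similar brightness. The 6 measured enzymes were positively correlated with each other across animals, though most correlations of Idi1 depended on few animals. Every value is a log2 ratio of 1 animal (red dye, Cy5) over a pool of all 16 animals (green dye, Cy3), so 0 is the pool's level, and no level is compared between genes.

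Between 46.4% and 76.2% of probes were well above background in the red channel per array. The 4 arrays of slide 1, which held 1 animal of each group, were the dimmest, with a mean of 49.2% against 66%, 70.4% and 71.7% on the other slides. Each group kept 1 position on every slide: Great Basin creosote 1, Mojave creosote 2, Mojave juniper 3 and Great Basin juniper 4. Differences of diet, of population and between the diet effects therefore cannot be told apart from array position. The tissue label was checked against 10 hepatocyte genes, of which 9 had a measurable probe. Of these, 4 were called higher on creosote in Great Basin animals (3.95% of all genes were called) and 6 in Mojave animals (9.73%), and none lower. The single differences, creosote minus juniper, ran from 0.03 to 1.41 in Great Basin and from -0.16 to 1.62 in Mojave animals. The mean log2 ratio of the 9 genes per animal lay between 0.46 and 0.81 in the creosote groups and between -0.16 and -0.03 in the juniper groups. Among genes of other cell types, the ranges of this mean in creosote and juniper animals overlapped in both populations for Kupffer cells, endothelium, cholangiocytes, lymphocytes and erythroid cells, with 6 of 8, 6 of 8, 3 of 7, 4 of 7 and 2 of 4 genes measurable. For stellate cells (6 of 8) they overlapped in Great Basin animals and not in Mojave animals, where the mean was 0.03 to 0.31 on creosote and -0.27 to -0.01 on juniper. Of the stellate genes, Rgs5 was higher on creosote in Great Basin animals (1.23, limma adjusted p = 0.00248). It did not pass in Mojave animals (0.65, adjusted p = 0.0768). Endothelial Xlkd1 was higher on creosote by 0.56 in both populations (limma adjusted p = 0.0107 and 0.00835). The Kupffer gene Cd14 passed in Great Basin animals alone (-0.54, limma adjusted p = 0.00681). No other stellate, endothelial or Kupffer gene passed for diet within either population. For genes of intestine and pancreas (6 of 7) the mean did not overlap between diets in either population, at -0.01 to 0.40 on creosote and -0.34 to -0.08 on juniper. Among them the amylase Amy2 was higher on creosote by 1.89 in Great Basin and 2.23 in Mojave animals (limma adjusted p = 0.000491 and 0.00026). The other 5 genes (Cpa1, Prss1, Pnlip, Vil1 and Fabp2) differed by -0.11 to -0.02 in Great Basin and by -0.23 to 0.16 in Mojave animals, none past the threshold in either, and Fabp2 was lower on creosote averaged over populations (-0.17, limma adjusted p = 0.0463). A ratio to a pool has no zero level, so the markers' absence cannot be read from it. Their part in the results was not tested, and in whole liver fewer cells of a type and less RNA per cell cannot be told apart.

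**Figure D1:**
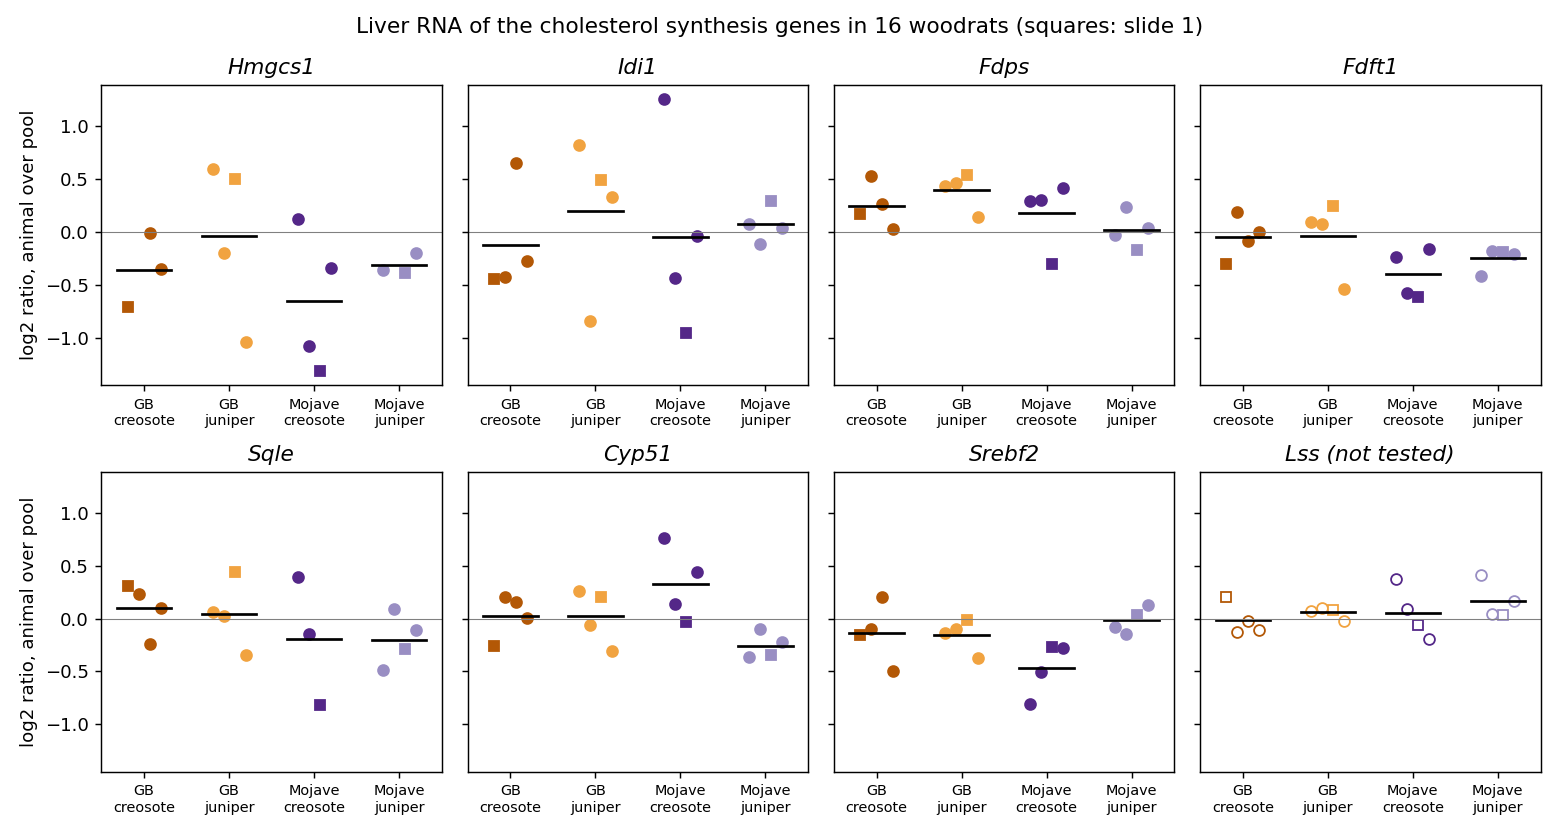
Log2 ratio of each animal over the pool (vertical axis) for the brightest probe of the 8 genes, by group on the horizontal axis (GB, Great Basin). Points are animals, squares are animals on slide 1, bars are group means, and open symbols mark Lss, which was not tested. In Cyp51 the 4 Mojave creosote animals lie above the 4 Mojave juniper animals, and in Hmgcs1 and Idi1 animals of one group lie far apart.

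Hmgcs1 encodes the cytosolic HMG-CoA synthase, which condenses acetoacetyl-CoA with acetyl-CoA at the start of the mevalonate pathway. Its bright probe (A_44_P487240) read -0.71, -0.01 and -0.35 in Great Basin creosote animals 1, 3 and 4, and 0.59, -0.20, 0.50 and -1.04 in the Great Basin juniper animals. It read 0.12, -1.08, -1.32 and -0.34 in the Mojave creosote animals and -0.36, -0.39 and -0.20 in Mojave juniper animals 1, 3 and 4. The spots of Great Basin creosote 2 and Mojave juniper 2 were marked as outliers by the scanning software and left out. The 4 groups overlapped, and the highest animal lay 3.76-fold above the lowest. The diet difference, creosote minus juniper, was -0.38 ± 0.37 in Great Basin animals (SE, limma adjusted p = 0.679) and -0.09 ± 0.42 in Mojave animals (adjusted p = 0.938). The 95% interval in Mojave animals, -1.01 to 0.82, leaves room for a difference in either direction.

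The other Hmgcs1 probe (A_43_P11890) gave another picture. It read -0.06, -0.04, 0.01 and 0.02 in Great Basin creosote animals, 0.15, -0.07, 0.02 and 0.04 in Great Basin juniper animals, 0.19, 0.33, 0.06 and 0.13 in Mojave creosote animals and -0.21, -0.26, 0.05 and -0.11 in Mojave juniper animals. The 4 Mojave creosote values lay above the 4 Mojave juniper values, the closest pair at 0.06 and 0.05. The difference in Mojave animals was 0.35 ± 0.08 (SE, adjusted p = 0.0104), with within-slide differences of 0.01, 0.24, 0.39 and 0.59. It was past the threshold, beside a background of 10% of all tested probes. The Great Basin value was -0.05 ± 0.07 and the difference of the 2 diet effects was 0.41 ± 0.11 (adjusted p = 0.121). This probe's background-corrected red signal had a median of 52.9 units over the arrays, about the size of the offset of 50 added before the logarithm, which draws dim ratios towards 0. It no longer passed without Mojave juniper 2 (0.31, adjusted p = 0.0558), with the authors' deposited log2 values (0.69, adjusted p = 0.111) and in the red channel alone (0.20, adjusted p = 0.559), and over 27 alternatives the adjusted p ran from 0.00655 to 0.559. The values of the Hmgcs1 probes did not follow each other over the 14 animals with both (r = -0.09, rho = -0.07), and which of them follows the woodrat transcript was not tested.

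Idi1 encodes isopentenyl-diphosphate isomerase, which interconverts the pathway's isoprenoid building blocks. Its bright probe (A_44_P251944) read -0.45, -0.43, 0.65 and -0.28 in Great Basin creosote animals and 0.82, -0.84, 0.49 and 0.33 in Great Basin juniper animals. It read 1.26, -0.44, -0.96 and -0.04 in Mojave creosote animals and 0.07, -0.12, 0.29 and 0.04 in Mojave juniper animals. The highest and the lowest of all 16 animals were both Mojave creosote animals, 4.65-fold apart, while the 4 Mojave juniper animals lay between -0.12 and 0.29. The diet differences were -0.33 ± 0.41 in Great Basin (adjusted p = 0.758) and -0.05 ± 0.45 in Mojave animals (adjusted p = 0.97).

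The other Idi1 probe (A_43_P12843) read -0.15, -0.03, -0.44 and -0.05 in Great Basin creosote animals and -0.01, -0.07, 0.09 and 0.08 in Great Basin juniper animals. It read -0.07, -0.12, 0.00 and -0.14 in Mojave creosote animals and 0.04, 0.02, 0.14 and 0.20 in Mojave juniper animals. The Mojave groups did not overlap and the Great Basin groups did. Averaged over populations it was lower on creosote by -0.20 ± 0.06 (SE, adjusted p = 0.0487), beside a background of 12.2% of all tested probes. In this comparison the bright probe gave -0.19 ± 0.31 (adjusted p = 0.772). The median red signal was 180 units for this dimmer probe and 3680 for the bright one. The call held in 7 of 28 alternatives. It was lost in the deposited log2 values (-0.26, adjusted p = 0.12), with slide as a block (-0.20, adjusted p = 0.0812) and in males alone (-0.14, adjusted p = 0.224). Leaving out any 1 animal other than Great Basin creosote 2, Great Basin creosote 4 or Mojave creosote 3 ended the call, with adjusted p between 0.03 and 0.111 and differences between -0.23 and -0.14 over all 16 omissions. The values of the Idi1 probes had r = -0.02 and rho = 0.24 over 16 animals.

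Fdps encodes farnesyl diphosphate synthase, whose product feeds sterols and also prenylated proteins. Its bright probe (A_44_P432965) read 0.17, 0.53, 0.26 and 0.03 in Great Basin creosote, 0.43, 0.46, 0.54 and 0.14 in Great Basin juniper, 0.29, 0.30, -0.30 and 0.41 in Mojave creosote and -0.03, 0.23, -0.17 and 0.04 in Mojave juniper animals. The diet differences were -0.14 ± 0.15 in Great Basin (adjusted p = 0.694) and 0.11 ± 0.16 in Mojave animals (adjusted p = 0.76). On juniper the Mojave value was lower on all 4 slides, with a difference from Great Basin of -0.37 ± 0.15 (unadjusted p = 0.024, adjusted p = 0.509), which did not pass. The other Fdps probe (A_44_P143567) was well above background on 12 of 16 arrays, ranged from -0.19 to 0.14 over all animals and was past the threshold in no comparison. The values of the Fdps probes had r = -0.07 and rho = -0.08 over 16 animals.

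Fdft1 encodes squalene synthase, which joins farnesyl diphosphate molecules in the first step committed to sterols. Its probe (A_44_P358492) read -0.30, 0.19, -0.09 and 0.00 in Great Basin creosote, 0.09, 0.07, 0.24 and -0.54 in Great Basin juniper, -0.24, -0.58, -0.62 and -0.16 in Mojave creosote and -0.42, -0.18, -0.19 and -0.21 in Mojave juniper animals. All 8 Mojave animals lay below the pool's level, and among Great Basin animals 3 of 8 did. The population difference averaged over diets, Mojave minus Great Basin, was -0.25 ± 0.11 (unadjusted p = 0.0387, adjusted p = 0.502) and did not pass. On creosote it was -0.29 ± 0.16 (adjusted p = 0.45), and in 1 of 29 alternatives, median centring in place of loess, it was -0.77 and passed (adjusted p = 0.0353). The diet differences were -0.01 ± 0.15 in Great Basin and -0.09 ± 0.16 in Mojave animals.

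Sqle encodes squalene epoxidase, which adds the oxygen that sterols carry. Its probe (A_44_P365580) read 0.31, 0.23, -0.24 and 0.10 in Great Basin creosote and 0.06, 0.02, 0.44 and -0.34 in Great Basin juniper animals. It read 0.39, -0.15 and -0.82 in Mojave creosote animals 1, 2 and 3, with the outlier spot of animal 4 left out, and -0.49, 0.09, -0.29 and -0.11 in Mojave juniper animals. The groups overlapped, and the diet differences were 0.06 ± 0.22 in Great Basin (adjusted p = 0.932) and -0.05 ± 0.26 in Mojave animals (adjusted p = 0.946). With the outlier spots of Hmgcs1 and Sqle kept, neither gene passed in any comparison.

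Lss encodes lanosterol synthase, which closes the sterol rings. Its only probe (A_44_P334218) was well above background on 3 of 16 arrays, under the 4 required, and was not tested. Its ratios ran from -0.19 to 0.41 and overlapped among the groups.

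Cyp51 encodes lanosterol demethylase, a cytochrome P450 of sterol synthesis and not of detoxification. Its probe (A_44_P168285) read 0.76, 0.14, -0.03 and 0.44 in Mojave creosote animals and -0.36, -0.10, -0.34 and -0.22 in Mojave juniper animals. It read -0.26, 0.20, 0.16 and 0.01 in Great Basin creosote animals and 0.26, -0.06, 0.20 and -0.31 in Great Basin juniper animals. The Mojave groups did not overlap, while the Great Basin groups covered nearly the same range. In Mojave animals the transcript was higher on creosote by 0.62 ± 0.17 (SE, adjusted p = 0.0344), a 1.54-fold difference with a 95% interval of 1.19 to 1.99. The within-slide differences were 0.31, 0.66, 1.12 and 0.24, all in the same direction. In Great Basin animals the difference was 0.00 ± 0.16, with an interval of -0.35 to 0.34.

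That the Mojave and Great Basin diet effects on Cyp51 differ did not pass its own test: the difference between them was 0.62 ± 0.24 (unadjusted p = 0.0199, adjusted p = 0.264). The Mojave call was near the threshold and rested on single animals. Without Mojave creosote 1 the difference was 0.48 (adjusted p = 0.086), without Mojave creosote 4 it was 0.58 (adjusted p = 0.0737), and without Mojave juniper 1, 3 or 4 it was 0.59, 0.59 and 0.62 (adjusted p = 0.114, 0.0662 and 0.0608). It was 0.56 in male animals alone (adjusted p = 0.233), 0.60 with slide as a block (adjusted p = 0.0545) and 0.65 in the authors' deposited log2 values (adjusted p = 0.0726). It shrank to 0.42 in the red channel alone (adjusted p = 0.456) and to 0.16 with median centring in place of loess (adjusted p = 0.672). Over all 29 alternatives the adjusted p ran from 0.0136 to 0.672 and the direction was the same in 29. In the same Mojave animals the mean of the hepatocyte genes ran from 0.46 to 0.76 on creosote and from -0.09 to -0.05 on juniper. The diet differences of the single hepatocyte genes ran from -0.16 to 1.62, and their part in the Cyp51 difference was not tested.

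**Figure D2:**
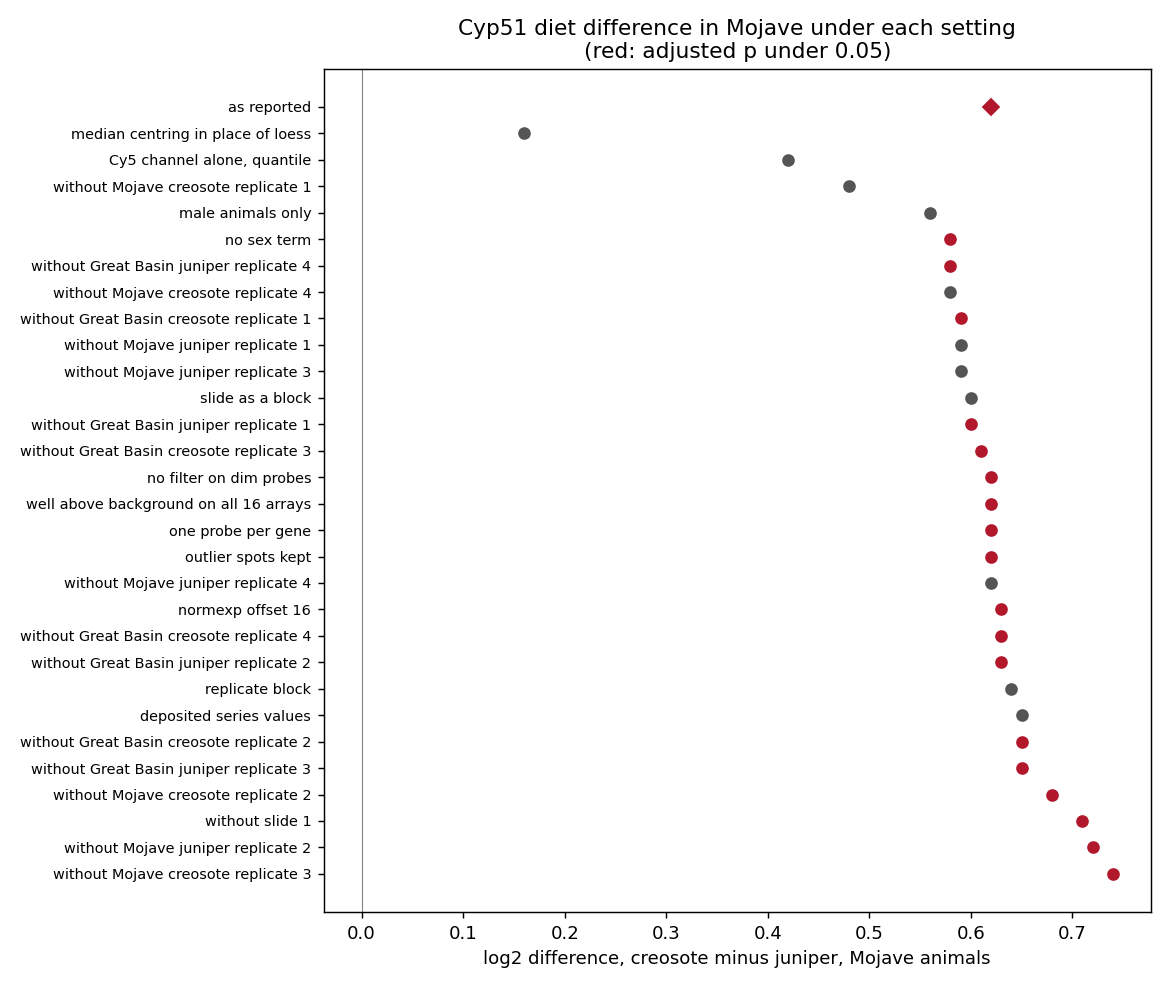
Log2 difference of Cyp51, creosote minus juniper, in Mojave animals (horizontal axis), as reported (diamond) and under each of 29 alternatives (circles). Red marks an adjusted p under 0.05. All points lie above 0, the lowest at 0.16 with median centring and the highest at 0.74 without Mojave creosote 3, and 18 of the 29 passed.

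Srebf2 encodes SREBP2, the factor that drives the genes above. Its bright probe (A_44_P504215) read -0.81, -0.51, -0.27 and -0.28 in Mojave creosote animals and -0.08, -0.15, 0.03 and 0.13 in Mojave juniper animals, with no overlap. It read -0.16, -0.10, 0.20 and -0.50 in Great Basin creosote and -0.14, -0.10, -0.01 and -0.37 in Great Basin juniper animals, which overlapped. The difference in Mojave animals was -0.41 ± 0.15 (SE, unadjusted p = 0.0166, adjusted p = 0.111), with within-slide differences of -0.73 to -0.30, and it did not pass. It passed in 2 of 29 alternatives, without the sex term (-0.45, adjusted p = 0.042) and with median centring (-0.67, adjusted p = 0.0236). In Great Basin animals the difference was 0.01 ± 0.14. The other Srebf2 probe (A_44_P382747) gave -0.13 ± 0.11 in Mojave and -0.03 ± 0.10 in Great Basin animals, and over 16 animals the Srebf2 probes had r = 0.48 and rho = 0.46. In Mojave animals the fitted diet differences of Cyp51 and Srebf2 thus had opposite signs, though that of Srebf2 did not pass.

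**Figure D3:**
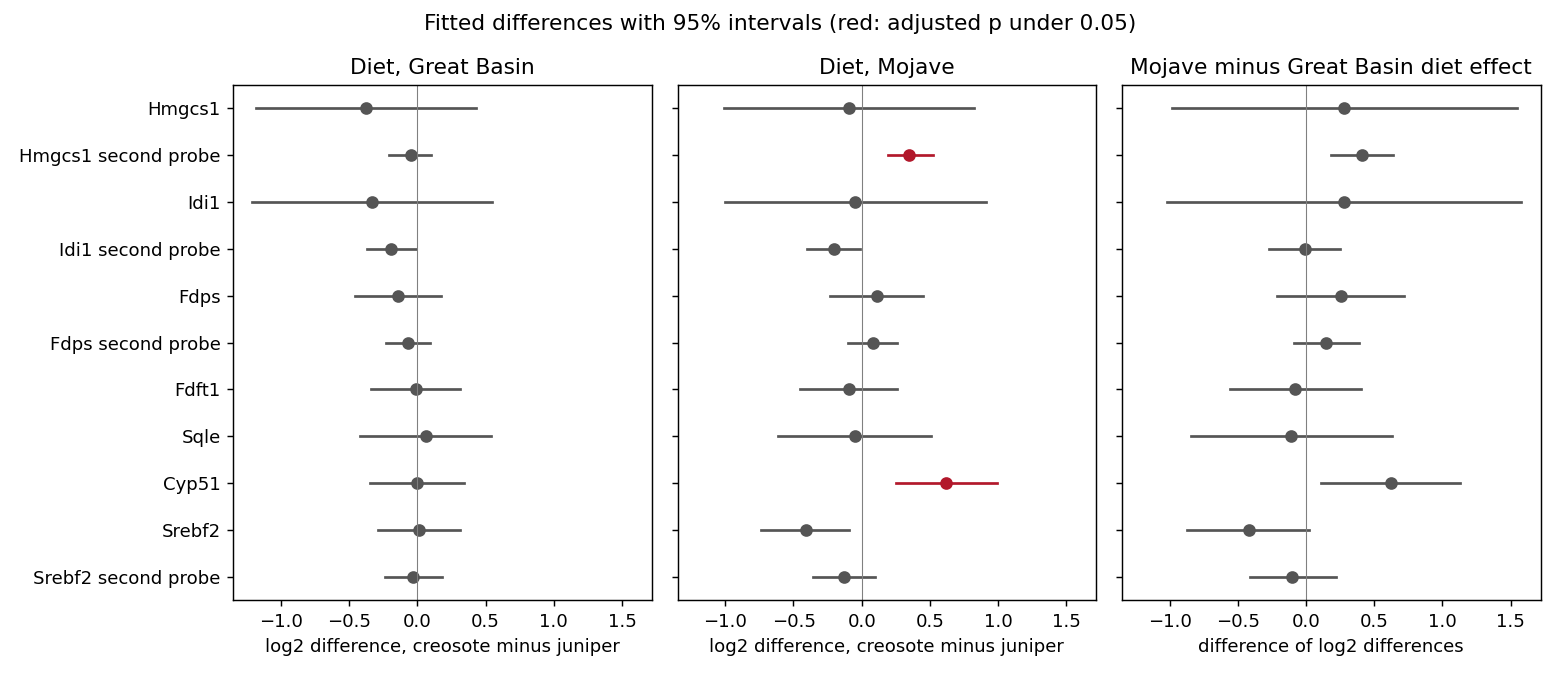
Fitted log2 differences of the 11 tested probes (points) with 95% intervals (lines) for the diet effect in Great Basin animals, the diet effect in Mojave animals and the difference between the diet effects. Red marks an adjusted p under 0.05. The intervals are widest for the bright probes of Hmgcs1 and Idi1, and the probes past the threshold are Cyp51 and the other probe of Hmgcs1, both in Mojave animals.

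Counted by brightest probe, the number of the 7 tested genes past the threshold was set beside that of all 26512 genes tested with limma. For diet in Mojave animals it was 1 of 7, with 9.73% of all genes called and 3.9% called higher on creosote; 1 is the smallest count above 0, and nothing is read from this share. For diet in Great Basin animals it was 0 of 7 beside 3.95%, and for diet averaged over populations 0 of 7 beside 12.1%. For population on creosote it was 0 of 7 beside 0.0792%, for population on juniper 0 of 7 beside 0%, for population averaged over diets 0 of 7 beside 0.0377%, and for the difference between diet effects 0 of 7 beside 0%. At an unadjusted p under 0.05 the members counted were 2 (Cyp51 and Srebf2) for diet in Mojave, beside 22.1% of all genes, 0 for diet in Great Basin, beside 16.9%, and 0 for population on creosote, beside 14%. They were 1 (Fdps) for population on juniper, beside 8% of all genes, and 1 (Cyp51) for the difference between diet effects, beside 12.9%. They were 1 (Cyp51) for diet averaged over populations, beside 24.5%, and 2 (Fdps and Fdft1) for population averaged over diets, beside 9.28%. Nothing is read from these small counts. The median difference over the 7 members was -0.01 in Great Basin and -0.05 in Mojave animals for diet, and -0.11 on creosote and -0.25 on juniper for population, beside medians of -0.01, 0, 0 and 0 over all genes. Loess centres each array, which holds the medians over all genes near 0, so they give no scale for a median of 7 genes. Most of the 7 were also correlated with each other, and nothing is read from their medians.

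The width of these intervals followed the spread among animals of one group. The residual SD on the log2 scale, after group and sex, was 0.68 for Idi1 and 0.58 for Hmgcs1, beside a median of 0.127 over all genes. Since the spread of a probe can depend on its brightness, each member was also set beside the 1000 other genes nearest to it in brightness. Idi1 had a larger residual SD than 98.9% of those genes (99.6% of all genes), and Hmgcs1 than 98.4% (99.3% of all). Sqle, at 0.37, exceeded 89.6% of similarly bright genes (96.7% of all). The remaining 4 lay nearer the middle of their brightness range: Srebf2, at 0.22, exceeded 76.4% (85.1% of all), Fdft1, at 0.24, 70.3% (88% of all), Cyp51, at 0.26, 69.2% (89.9% of all), and Fdps, at 0.23, 67% (86.9% of all). In the red channel the bright probes of all 7 genes were well above background on 16 of 16 arrays, and none was saturated there on any array.

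The spread was shared among the enzymes, least so for Idi1. All 15 pairs of the 6 measured enzymes were positively correlated across animals, with Pearson r from 0.21 to 0.87 and a median of 0.56. Without the 2 animals farthest from the other gene's median, r of Idi1 was 0.06 with Sqle, 0.13 with Cyp51 and 0.03 with Fdps. It was then -0.08 with Fdft1 and 0.48 with Hmgcs1, so all but the last depended on those animals. Between the remaining enzymes such omissions left r from 0.35 to 0.82. With the 2254 genes inside the brightness range of the 6 enzymes as partners, the median r of each of the 7 genes lay between -0.05 and 0.05. The enzyme pairs stood differently beside these partners. The r of Cyp51 and Fdft1 exceeded 74.8% of partners of Cyp51 and 86.6% of those of Fdft1. For Fdft1 and Idi1 the shares were 75.5% and 79.5%. At the other end, Hmgcs1 and Fdft1 exceeded 100%, after rounding, with either gene. These partners were not matched to each gene, and Srebf2 was dimmer than the enzymes (median red signal 272 units against 3680 or more). Among all 21 pairs including Srebf2, 5 passed Benjamini-Hochberg adjustment of a two-sided permutation test of r with 100000 resamples. The closest pair was Hmgcs1 and Fdft1, at r = 0.87 (permutation p = 0.00013, adjusted 0.00273) and rho = 0.83 (permutation p = 0.00054, adjusted 0.0113) over 14 animals. The 3 lowest animals were the same for both genes: Mojave creosote 3, Mojave creosote 2 and Great Basin juniper 4. Great Basin juniper 3 was the highest in Fdft1 and next to the highest in Hmgcs1, below Great Basin juniper 1. Without the 2 animals farthest from the Hmgcs1 median r was 0.82, and with group and sex removed it was 0.81.

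**Figure D4:**
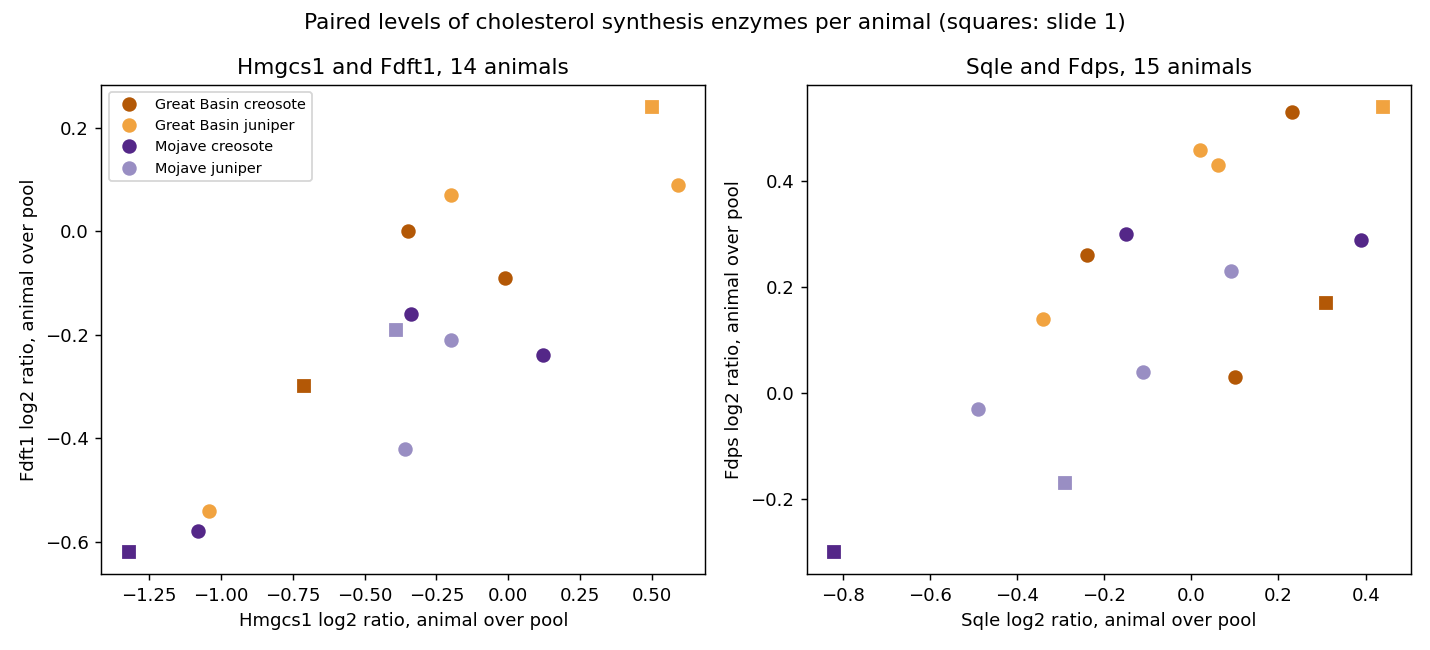
Log2 ratio of Fdft1 against Hmgcs1 in 14 animals (left) and of Fdps against Sqle in 15 animals (right), each point an animal coloured by group, with squares for slide 1. In the left panel Mojave creosote 3 is the lowest animal in both genes and Great Basin juniper 3 is among the highest, and both were on slide 1.

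In 4 other pairs the correlation passed as well. Sqle and Fdps had r = 0.74 (permutation p = 0.00134, adjusted 0.0141) and rho = 0.64 (adjusted 0.0581) over 15 animals. Sqle and Fdft1 had r = 0.67 (permutation p = 0.00596, adjusted 0.0318) and rho = 0.60 (adjusted 0.0642) over 15 animals. Fdps and Fdft1 had r = 0.65 (permutation p = 0.00606, adjusted 0.0318) and rho = 0.67 (adjusted 0.0417) over 16 animals. Hmgcs1 and Idi1 had r = 0.67 (permutation p = 0.00934, adjusted 0.0392) and rho = 0.65 (adjusted 0.0581) over 14 animals. Without the 2 animals farthest from the median of the gene named first, these values were 0.54, 0.51, 0.61 and 0.48, and all 4 were smaller than with every animal. Cyp51 and Fdps passed by rho alone, at r = 0.56 (adjusted 0.0659) and rho = 0.68 (adjusted 0.0417).

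The enzymes were also correlated among animals of one group. With group means and sex removed, all 15 enzyme pairs were again positive, with a median r of 0.70 and a range of 0.21 to 0.93. Cyp51 and Hmgcs1 had r = 0.44 over all animals and 0.93 within groups, and Cyp51 and Fdft1 had 0.32 and 0.81. Each slide held 4 animals, too few for a correlation within a slide, but with slide removed as well all 15 stayed positive with a median of 0.75. Over the alternatives, the median over the 15 pairs ran from 0.48 to 0.73, the value of Hmgcs1 and Fdft1 from 0.78 to 0.91, and the number of positive pairs from 13 to 15. All animals shared one pool in the green channel.

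The correlations of Srebf2 with the enzymes it is known to drive were of mixed sign. Its 6 correlations with them ran from -0.48 (with Cyp51, permutation p = 0.0588, adjusted 0.123) to 0.34 (with Fdft1, permutation p = 0.203, adjusted 0.328), and none passed. Leaving out the 2 animals farthest from the Cyp51 median took the value with Cyp51 to -0.06, and with group and sex removed it was -0.10, so the negative value rested on those animals and on differences between groups. With slide removed as well, r of Srebf2 was 0.44 with Hmgcs1, 0.36 with Fdps, 0.34 with Fdft1 and 0.26 with Cyp51. It was then 0 with Idi1 and -0.27 with Sqle. With 14 to 16 animals per pair and a dim Srebf2 probe, a lack of correlation cannot be read from these values.

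**Figure D5:**
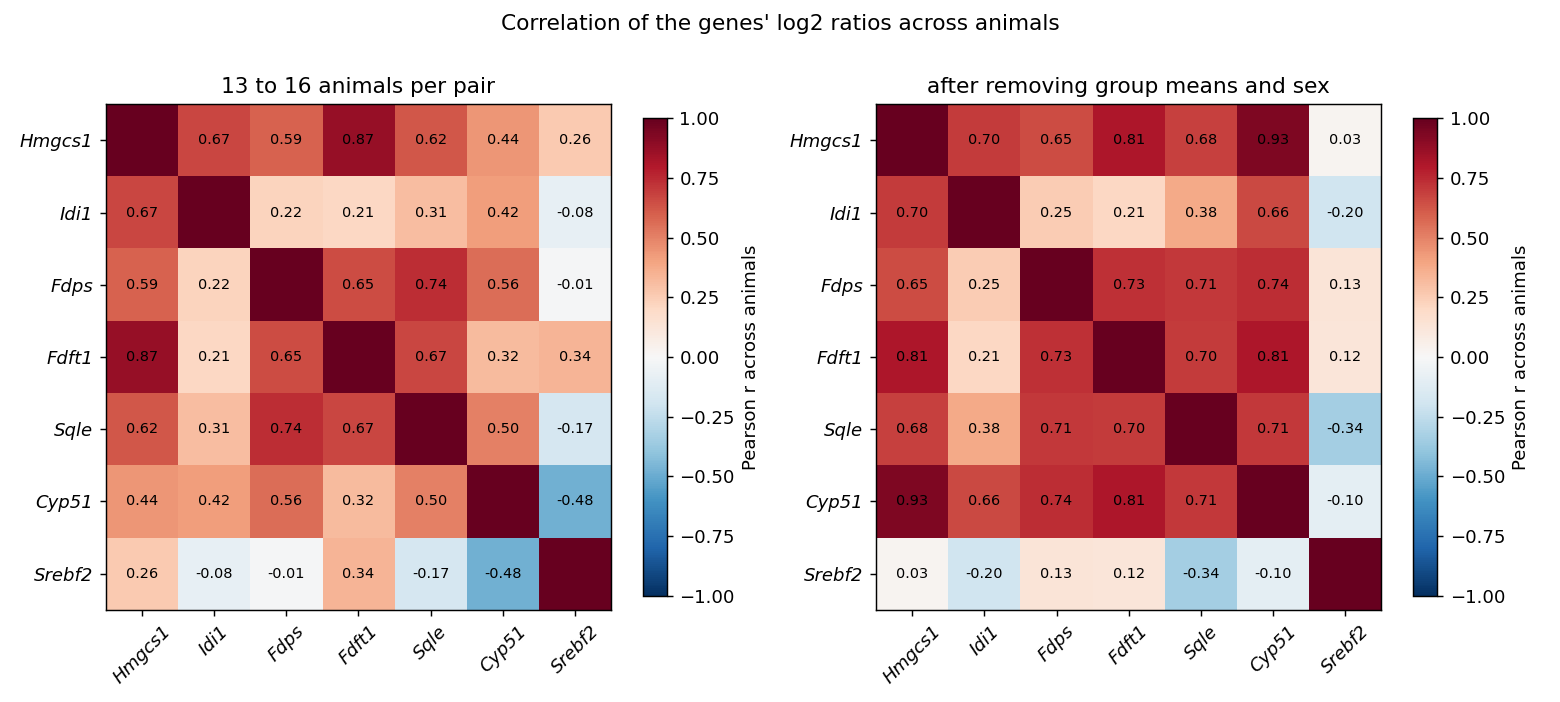
Pearson r between the log2 ratios of the 7 tested genes across animals, over all animals (left) and after group means and sex were removed (right). Red is positive and blue negative. The block of 6 enzymes is positive in both panels, and the row of Srebf2 is near 0 or of mixed sign.

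As a summary per animal, each enzyme was scaled to mean 0 and SD 1 over the animals and averaged over the 6 enzymes. The lowest animal was Mojave creosote 3 at -1.59, and Great Basin juniper 4 and Mojave juniper 1 followed at -0.72 each. The highest were Great Basin juniper 3 at 1.20, Mojave creosote 1 at 1.11 and Great Basin juniper 1 at 1.00. The Mojave creosote group thus held both the lowest animal and one of the highest, and the 4 groups overlapped. Mojave creosote 3 and Great Basin juniper 3 were both on the dim slide 1.

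Genes of the wider pathway came from 4 lists chosen by function. Of 18 further enzymes of cholesterol synthesis, 15 were tested and none passed in any of the 7 comparisons, in which 0% to 12.1% of all genes were called, with medians of 0.11 for diet in Great Basin and 0.02 in Mojave animals. Across 16 animals the enzyme mean had r = 0.57 with Nsdhl, a later sterol enzyme, which is a description over animals that share the pool.

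Of 14 listed genes of uptake and intracellular sterol transport, 6 were tested and none passed in any comparison, beside the same 0% to 12.1% of all genes, with medians of 0.02 for diet in Great Basin and -0.16 in Mojave animals. Npc1l1 and Stard4 of this list had no probe that could be tested.

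Of 10 genes listed under SREBP control, Srebf1 among them, 9 were tested. For diet in Great Basin animals 1 passed, as higher on creosote, beside 3.95% of all genes. In Mojave animals 1 passed as higher and 2 as lower, beside 9.73%. For diet averaged over populations 1 passed as higher and 1 as lower, beside 12.1%. None passed in the other comparisons, and nothing is read from these small counts. Srebf1, which encodes SREBP1, the relative of SREBP2 that drives fatty acid synthesis, was higher on creosote by 1.45 ± 0.19 in Great Basin (adjusted p = 0.000483) and 1.29 ± 0.21 in Mojave animals (adjusted p = 0.0013). Its 8 creosote values lay between 0.19 and 1.20 and its 8 juniper values between -1.03 and -0.42. Another Srebf1 probe gave 1.12 ± 0.19 (adjusted p = 0.00311) and 0.58 ± 0.20 (adjusted p = 0.0952), and one that was well above background on 9 arrays gave -0.01 and 0.11. Insig1, which holds SCAP and the SREBPs in the endoplasmic reticulum, did not pass, at -0.17 ± 0.13 and -0.02 ± 0.14 (adjusted p = 0.579 and 0.962).

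Scap, which escorts SREBP2 to the Golgi, was lower on creosote in Mojave animals by -0.45 ± 0.11 (adjusted p = 0.0137), with values of -0.88, -0.29, -0.61 and -0.57 against -0.12, -0.09, 0.05 and 0.07. In Great Basin animals its difference was 0.10 ± 0.10, and the difference between the diet effects was -0.56 ± 0.15 (adjusted p = 0.117). In Mojave animals it no longer passed without juniper animal 2 (-0.43, adjusted p = 0.0564), without slide 1 (-0.44, adjusted p = 0.0798), in males alone (-0.48, adjusted p = 0.0966), in the deposited log2 values (-0.45, adjusted p = 0.0698) and in the red channel alone (-0.31, adjusted p = 0.227). With median centring it was -0.93, and over 29 alternatives the adjusted p ran from 0.00052 to 0.227.

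Of 15 genes of cholesterol esterification, export and conversion, 12 were tested and 1 passed, for diet in Mojave animals, beside 9.73% of all genes, and for diet averaged over populations, beside 12.1%. This share was near the background, and nothing is read from it. Abca1, which loads cholesterol onto apolipoproteins, was lower on creosote in Mojave animals by -0.53 ± 0.13 (adjusted p = 0.0168), at -0.34, -0.56, -0.36 and -0.40 against 0.32, 0.09, 0.08 and -0.15. It no longer passed without Mojave juniper 1 (-0.43, adjusted p = 0.0924) or in the deposited log2 values (-0.60, adjusted p = 0.0691), and over 29 alternatives the adjusted p ran from 0.000662 to 0.0924. The Great Basin difference was -0.14 ± 0.12 and the difference between diet effects -0.39 ± 0.18 (adjusted p = 0.352). Cyp7a1, the rate-limiting enzyme of bile acid synthesis, had no probe that could be tested.

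The genes whose pattern over the 16 animals was most like the mean of the 7 members were Mrpl30 (r = 0.81), Rnf135 (0.79), Vps37b (0.76), Cx3cl1 (0.76) and Ppox (0.75), out of 12412 named genes compared. These are descriptions of the highest values among many.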

How the data were processed

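Liver RNA of 16 woodrats was hybridised to rat arrays, 1 animal (Cy5) against a pool of all 16 (Cy3) on each, with no dye swap. Per the file headers and the submitters' processing notes, the deposited scanner files hold linear spot intensity values from Agilent Feature Extraction 9.1.3.1. The authors' series table gives log2 values, animal over pool, which equalled the ratio of the software's processed signals and served as an alternative. Rat probes can bind a woodrat transcript less well where the sequences differ, which was not tested.

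Mean signals were corrected by normexp with an offset of 50 against the median local background and normalised by loess within each array, in R 4.3.3 with limma 3.58.1. Control and outlier spots were left out, and probes were averaged. Of 41012 probes, 30186 were well above background in red on at least 4 arrays, and 30152 could be tested. The model held 4 group means and a sex term over all 16 arrays, so differences are adjusted for sex and need not equal the difference of group means. Tests were two-sided moderated tests of limma, with Benjamini-Hochberg adjustment over all tested probes, a threshold of 0.05 and 7 contrasts. A gene was called by its brightest probe. The median SE was 0.0894 for diet in Great Basin and 0.0966 in Mojave animals. The number of arrays limits this precision. Replicates are separate animals.

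The members and lists were chosen with earlier results of these data known. Named were all members, Insig1 and Srebf1, genes of the wider lists called in 1 or more contrasts, and the 5 genes most like the members' mean. A gene singled out beyond this rule (Nsdhl, Amy2, Rgs5, Xlkd1, Cd14, and genes that could not be tested) was chosen after its values were seen. Same-numbered animals did not vary together (24 pairs, r from -0.17 to 0.14, 2 of them over 0.1), so numbers were not used as pairs. Some genes that the rule names are not reported here. Alternatives concerned normalisation, signals, offset, filters, sex, slide, replicate number, outlier spots and single animals. The fit was tested on simulated data.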

Additional observations from a re-analysis of the deposited data

Results flagged for a closer look

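Within the groups of 4, a Dixon test at the 95% level asks whether the highest or lowest animal lies far from the others, relative to the range of its group. Of 45 groups tested, 3 were past the critical value, and chance flags about 1 in 20. For Fdps, Mojave creosote 3 read -0.30 and the nearest animal of its group 0.29 (gap over range 0.841). For Fdft1, Mojave juniper 1 read -0.42 and the nearest animal -0.21 (0.865). For Idi1, Great Basin creosote 3 read 0.65 and the nearest animal -0.28 (0.841). Mojave creosote 3 was also the lowest animal of its group in Hmgcs1, Sqle, Cyp51, Fdft1 and Idi1, and it lay on the dim slide 1.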

How the results depend on the processing

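The count of members past the threshold for diet in Mojave animals was 1 as reported. It was 0 with the deposited series values, the red channel alone, slide as a block, the replicate number as a block and male animals only, and 2 without the sex term, where Srebf2 joined Cyp51. It was 0 to 1 when 1 animal was left out. For population on creosote it was 0, and 1 with median centring, which is Fdft1. For diet averaged over populations it was 0, and 0 to 1 when 1 animal was left out, the 1 being Cyp51 without Mojave creosote 3 (0.37, adjusted p = 0.048). The other 4 counts were 0 under all 29 alternatives. With median centring the count for diet in Mojave stayed 1 because Srebf2 passed and Cyp51 did not. With the replicate block the Cyp51 difference was 0.64 (adjusted p = 0.0575), and the count for diet in Mojave animals was 0, but the numbers do not pair the animals. The number of all probes called for diet in Mojave animals was 3025 as reported and ran from 1273 to 5617, for diet in Great Basin animals 1180 and 174 to 1622. For population on creosote it was 27 and 0 to 3746, and for the difference between diet effects 0 and 0 to 3006, the highest in both with median centring. The alternatives with outlier spots kept, and those of the correlations, were added after the data were seen. Wide intervals and dim probes limit what 4 animals a group can show.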
